A study of Mus musculus with 6 samples.

Results

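The mouse mitochondrial genome carries 37 genes, and all of them were rows of the count table, which lists 56941 genes. They were chosen as the rows whose gene name begins with mt-, and they comprised 13 mRNAs, 2 rRNAs and 22 tRNAs. In the GENCODE annotation of GRCm39, 28 of them lie on the plus strand and 9 on the minus strand of a circle of 16299 bases. RNA had been prepared from hair follicle stem cells (HFSCs), which were sorted from dorsal skin of female mice at postnatal day 68 by surface CD34 and α6-integrin. All mice were of the strain B6;129S4-Dab2tm1Cpr/J, were homozygous for the floxed allele (Dab2 fl/fl) and received tamoxifen on 5 days at 75 mg/kg per day. The 3 libraries labelled WT came from mice without the Cre transgene. The 3 libraries labelled Dab2-cKO came from mice that also carried K14CreER, a Cre recombinase activated by tamoxifen. The keratin 14 promoter that drives this Cre is active in basal keratinocytes in general and is not specific to HFSCs. Whether animals were pooled for a library is not given in the sources used here.

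Mitochondrial DNA is transcribed from both strands into long precursors that hold many genes each. Most mRNAs and rRNAs in these precursors are separated by tRNAs, and excision of the tRNAs by RNase P at the 5′ end and by ELAC2 at the 3′ end frees the RNAs between them. The rRNAs mt-Rnr1 (12S) and mt-Rnr2 (16S) form the core of the mitochondrial ribosome. This ribosome and the tRNAs serve to make the proteins of the 13 mRNAs, which are subunits of complexes I, III, IV and V of oxidative phosphorylation. All other subunits are encoded in the nucleus.

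The 6 libraries held 7040032 to 11696457 counts, and Dab2, the targeted gene, was higher in every library labelled Dab2-cKO (1130 to 1504 counts) than in every library labelled WT (304 to 368 counts), with a log2 fold change of 2.08 ± 0.08 (SE). This goes against the label, so groups are named here as labelled. The sort markers were both called higher by edgeR in the libraries labelled Dab2-cKO. Cd34 had 409 to 622 counts in the libraries labelled WT and 1582 to 1840 for those labelled Dab2-cKO, with a log2 fold change of 1.80 ± 0.08 (SE). Itga6 had 848 to 1115 and 1255 to 1444 counts, with a log2 fold change of 0.55 ± 0.07 (SE). All 6 proliferation markers were called lower, with a median log2 fold change of -1.32 and a summed share of 0.117 to 0.118% against 0.0234 to 0.0242% of the counts. Markers of cells other than HFSCs, both in and outside the hair follicle, were present in all libraries. The 5 skeletal muscle markers took 0.244 to 0.260% of the counts in the libraries labelled WT and 0.912 to 0.956% for those labelled Dab2-cKO. The 6 fibroblast markers took 1.29 to 1.44% and 3.17 to 3.46%, and the 11 hair shaft and inner root sheath markers took 2.90 to 3.20% and 0.0208 to 0.0223%. Larger shares in the libraries labelled Dab2-cKO also held for markers of differentiated epidermis, sebaceous gland, endothelial cells, immune cells, adipocytes and erythrocytes. Those of melanocytes took a smaller share there. None of the markers in these lists was at 0 in all libraries. Their part in the results that follow was not tested. In bulk RNA, a change in the share of a cell type cannot be told apart from a change of RNA per cell.

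The sequences of 4 tRNAs are shown here because these 4 held 73.6 to 89.0% of all tRNA counts per library and carried most of the difference between the groups. They are printed 5′ to 3′ as DNA from the GRCm39 reference, with the anticodon, which pairs with the codon during translation, in capitals. The tRNA for valine, mt-Tv, lies between both rRNA genes at chrM:1025-1093 on the plus strand. The tRNA for methionine, mt-Tm, abuts mt-Nd2 at chrM:3845-3913 on the plus strand. The tRNA for glycine, mt-Tg, lies between mt-Co3 and mt-Nd3 at chrM:9391-9458 on the plus strand. The tRNA for proline, mt-Tp, lies at chrM:15356-15422 on the minus strand.
mt-Tv: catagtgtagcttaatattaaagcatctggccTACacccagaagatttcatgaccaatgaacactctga
mt-Tm: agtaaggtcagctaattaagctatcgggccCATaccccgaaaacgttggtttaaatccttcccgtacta
mt-Tg: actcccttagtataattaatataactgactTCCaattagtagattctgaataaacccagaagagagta
mt-Tp: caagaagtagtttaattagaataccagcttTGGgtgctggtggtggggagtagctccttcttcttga

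A second pair of sequences bears on which counts can be trusted. Bases 6390 to 11042 of the mitochondrial genome also occur on chromosome 1 of the reference at an identity of 99.9%, with 2 mismatches and 1 gap base. Reads that lie wholly in that stretch and cross none of these differences match both places exactly. Of the windows of 150 bases that touch mt-Tg, 32.3% had an exact nuclear match. This was 44.3% for mt-Nd3, 91.5% for mt-Co3 and 100% for mt-Co2. How the authors' counting treated reads with several matches is not given in the sources used here. One of the few differences is T9461C, with the mitochondrial base first and positions counted from base 1 of the plus strand, at the third base of mt-Nd3. The windows of 41 bases around it are chrM:9441-9481 on the plus strand and chr1:24652178-24652218 on the minus strand, with the differing base in capitals.
chrM: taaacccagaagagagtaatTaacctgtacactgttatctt
nuclear copy: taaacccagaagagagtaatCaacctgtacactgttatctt

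Together, the 37 genes took 14.45, 12.99 and 13.12% of all counts in the libraries labelled WT. In those labelled Dab2-cKO they took 19.1, 19.4 and 20.3%. Every library labelled Dab2-cKO thus lay above every library labelled WT, and the means were 19.6 ± 0.61% and 13.5 ± 0.81% (SD, n = 3 each). Nearly all of these counts were rRNA, which made up 93.2 to 93.5% of them in libraries labelled WT and 94.1 to 94.4% in libraries labelled Dab2-cKO. The kit as supplied includes a step against ribosomal cDNA, so that rRNA counts measure what remained after it.

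The rRNAs took 13.5, 12.1 and 12.3% of all counts in the libraries labelled WT and 18.01, 18.33 and 19.09% for those labelled Dab2-cKO, a ratio of the means of 1.46. The mRNAs took 0.976, 0.854 and 0.851% in the libraries labelled WT and 1.09, 1.07 and 1.17% for those labelled Dab2-cKO, a ratio of 1.24. The tRNAs took 0.00784, 0.0111 and 0.00799% in the libraries labelled WT and 0.0224, 0.0209 and 0.0287% for those labelled Dab2-cKO, a ratio of 2.68. In none of the 3 classes did the groups overlap, and the tRNAs differed most. An exact two-sided permutation test of 3 against 3 libraries gave p = 0.1 for each class and for the sum, the smallest value this design allows, and 0.12 after Benjamini-Hochberg adjustment over 12 shares and ratios.

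**Figure D1:**
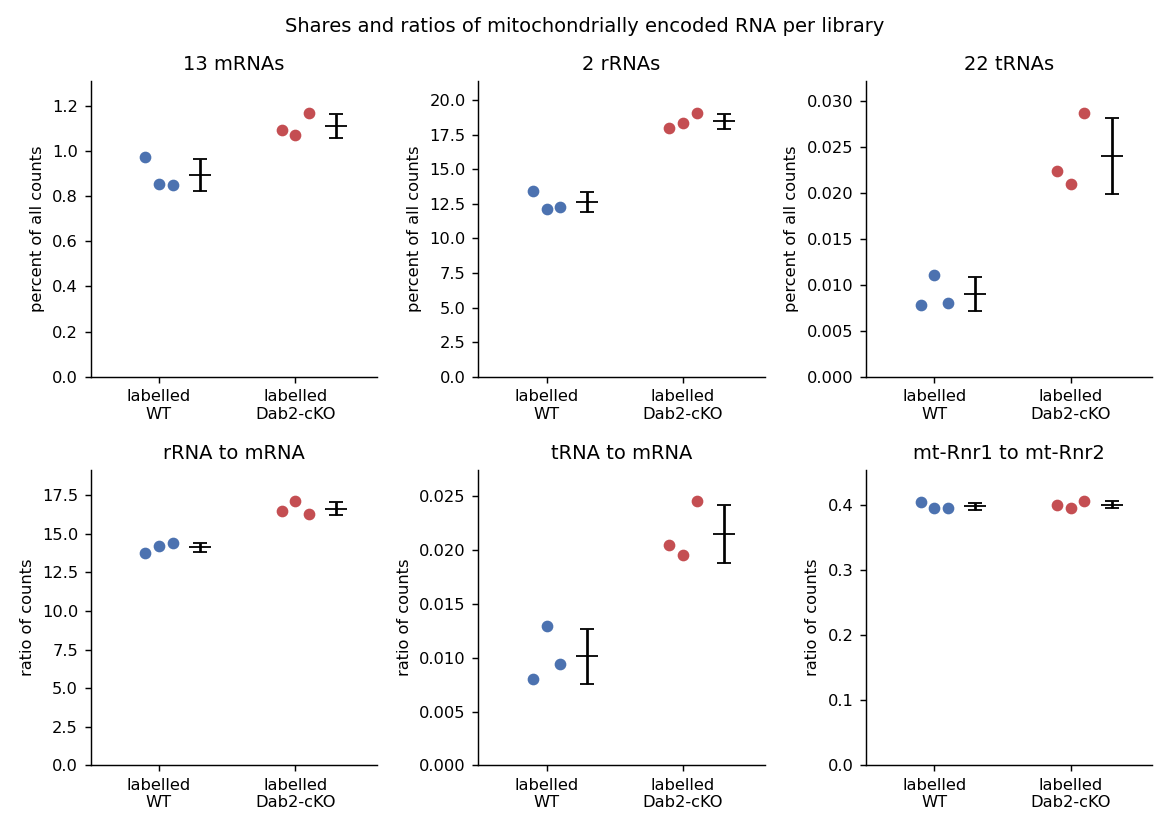
Percent of all counts (upper row) and ratios of counts between classes (lower row) in each library, with 1 point per library and the mean ± SD of 3 libraries beside them. The groups are apart in all panels but that of mt-Rnr1 to mt-Rnr2, where the libraries labelled WT lie between 0.395 and 0.404 and those labelled Dab2-cKO between 0.395 and 0.405.

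Other large shares of the counts differed between the libraries as well. Nuclear rRNA genes took 3.03 to 4.19% of the counts in libraries labelled WT and 4.32 to 5.13% for those labelled Dab2-cKO, nearly all from the 18S gene Rn18s-rs5 (243561 to 381196 and 417112 to 490565 counts). A pair of short loci annotated as miRNA, Gm55094 and Gm55118, took 2.11 to 3.42% and 4.79 to 8.59%. Because such shares are part of the total, the genes were also compared after TMM scaling, which sets the bulk of all genes level between libraries. Its factors were 1.11 to 1.21 for libraries labelled WT and 0.847 to 0.876 for those labelled Dab2-cKO, and fold changes after TMM are accordingly larger than ratios of shares. Normalized counts below are on this scale, that is, each count over the TMM-corrected total of its library, times the mean of the 6 corrected totals.

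Relative to each other, the classes did not keep their proportions. For each mRNA count there were 13.8, 14.2 and 14.4 rRNA counts in the libraries labelled WT and 16.5, 17.1 and 16.3 for those labelled Dab2-cKO, with no overlap. For each mRNA count there were 0.00803, 0.0130 and 0.00939 tRNA counts in the libraries labelled WT and 0.0205, 0.0195 and 0.0245 for those labelled Dab2-cKO, again with no overlap. The means of the tRNA to mRNA ratio were 0.0101 ± 0.0025 and 0.0215 ± 0.0027 (SD, n = 3 each), 2.12 times apart. Both ratios had p = 0.1 by the exact permutation test, the smallest possible.

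The 2 rRNAs moved as a pair. The ratio of mt-Rnr1 to mt-Rnr2 counts was 0.398 ± 0.0054 in libraries labelled WT and 0.4003 ± 0.0053 for those labelled Dab2-cKO (SD, n = 3 each), and the groups overlapped (exact permutation p = 0.6). mt-Rnr1 lies at chrM:70-1024, and it had 272830, 324804 and 330538 counts in the libraries labelled WT and 602375, 486460 and 546246 for those labelled Dab2-cKO. mt-Rnr2 lies at chrM:1094-2675, and it had 674935, 823165 and 836574 counts in the libraries labelled WT and 1503620, 1231818 and 1347264 for those labelled Dab2-cKO. After TMM scaling, edgeR gave a log2 fold change of 0.98 ± 0.06 (SE, adjusted p = 6.51e-23) for mt-Rnr1 and of 0.97 ± 0.06 (adjusted p = 1.20e-23) for mt-Rnr2. Per kb of gene, mt-Rnr1 was at 0.659 ± 0.009 of the level of mt-Rnr2 in libraries labelled WT and at 0.663 ± 0.009 for those labelled Dab2-cKO (SD, n = 3 each).

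All 37 genes were put into a fit across 32149 genes, in which 16.8% of all genes were called higher and 11.5% lower in the libraries labelled Dab2-cKO at an adjusted p under 0.05. The low-count filter of this fit kept 26 of the 37. Of these, 18 were called higher by edgeR, none lower, and 8 were not called. At an unadjusted p under 0.05, 21 were higher and again none lower, and DESeq2 called 16 of 24 higher and none lower, beside 16.0% and 9.79% of all genes with an adjusted p by DESeq2. The 11 genes not tested were mt-Atp8, mt-Nd3, mt-Nd4l and the tRNAs mt-Tw, mt-Ty, mt-Ts1, mt-Td, mt-Tk, mt-Tr, mt-Ts2 and mt-Tl2, which had 0 to 18 counts in each library. The median log2 fold change was 0.72 over the 10 mRNAs tested, 0.98 over the 2 rRNAs and 1.18 over the 14 tRNAs tested, beside -0.02 over all genes tested. That median of all genes was -0.17 with upper-quartile scaling and -0.45 with scaling by library size only. With either of these scalings 8 mRNAs and both rRNAs were called higher, and 7 and 6 tRNAs were. Over all genes, edgeR called 13.3% higher and 17.3% lower with upper-quartile scaling, and 8.35% higher and 34.7% lower by library size only.

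**Figure D2:**
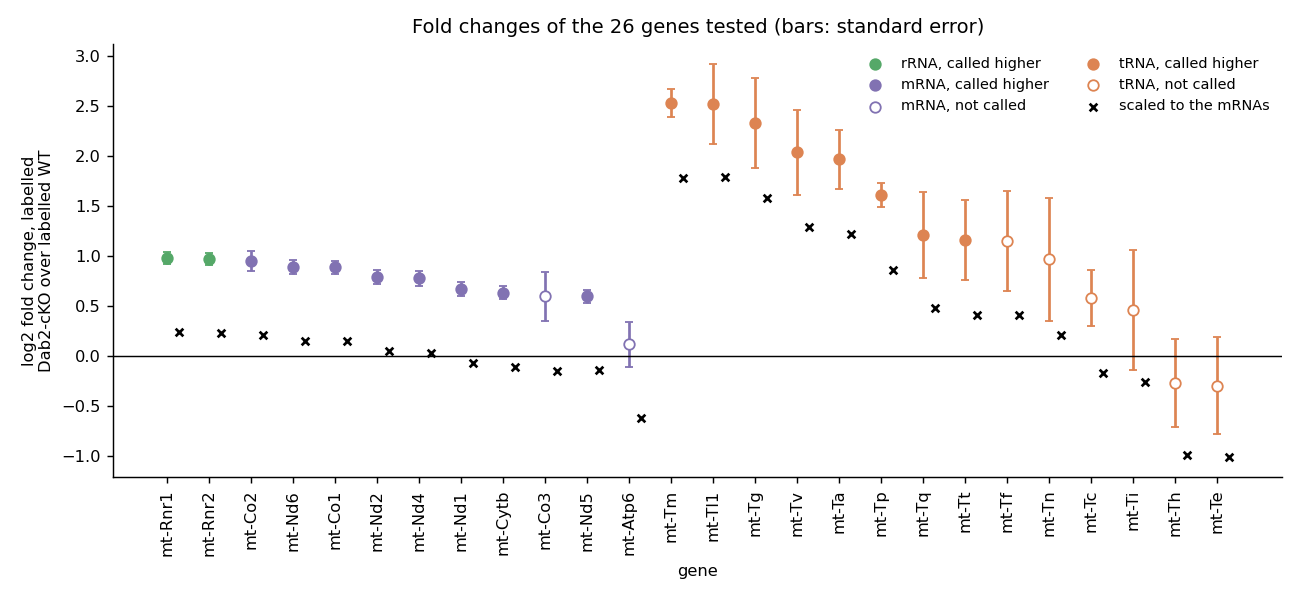
Log2 fold change of libraries labelled Dab2-cKO over libraries labelled WT for the 26 genes tested, grouped as rRNAs, mRNAs and tRNAs, with standard errors from edgeR after TMM scaling. Filled points were called at an adjusted p under 0.05, and crosses give the change relative to the summed mitochondrial mRNAs, where mRNAs lie between -0.63 and 0.21 and tRNAs between -1.02 and 1.79.

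Of the 10 mRNAs tested, 8 were higher, by 0.60 to 0.95 on the log2 scale, beside 16.8% of all genes called higher. Complex I, which takes electrons from NADH, has 7 of its subunits encoded here, and 5 were tested and all called. mt-Nd1 had 9147, 10647 and 10957 counts in the libraries labelled WT and 16240, 12807 and 14606 for those labelled Dab2-cKO, a log2 fold change of 0.67 ± 0.07 (SE). mt-Nd2 had 4070, 4882 and 4800 counts against 7809, 6047 and 7358, with a log2 fold change of 0.79 ± 0.07. In neither gene did the groups overlap. mt-Nd4, most of which lies in the stretch copied on chromosome 1, had 4502, 5160 and 5032 counts against 8333, 6401 and 7787, with a log2 fold change of 0.78 ± 0.07. mt-Nd5 had 13127, 15751 and 15160 counts against 22473, 17311 and 19803, with a log2 fold change of 0.60 ± 0.07. Both were again higher in every library labelled Dab2-cKO. Adjusted p-values of these genes by edgeR were at most 1.01e-11.

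mt-Nd6 is the only mRNA on the minus strand and overlaps the end of mt-Nd5 by 14 bases. It had 3533, 3866 and 3630 counts in the libraries labelled WT and 7099, 5492 and 5780 for those labelled Dab2-cKO, with a log2 fold change of 0.89 ± 0.07 (SE, adjusted p = 2.23e-17 by edgeR). The strand setting of the counting is not given in the sources used here, so that reads from the opposite strand cannot be told apart. It made up 5.14, 4.78 and 4.48% of the mRNA counts in the libraries labelled WT and 5.55, 5.47 and 4.98% for those labelled Dab2-cKO. These shares overlapped between the groups (exact permutation p = 0.2).

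Complex III has a single subunit from this genome, cytochrome b. Its mRNA mt-Cytb had 14324, 16523 and 17229 counts in the libraries labelled WT and 24421, 19322 and 22829 for those labelled Dab2-cKO. No value of one group reached into the other, and the log2 fold change was 0.63 ± 0.07 (SE, adjusted p = 1.10e-12 by edgeR).

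For complex IV, cytochrome c oxidase, the catalytic subunit mt-Co1 had 19724, 23611 and 23777 counts in the libraries labelled WT and 40823, 32505 and 37369 for those labelled Dab2-cKO. This gave a log2 fold change of 0.89 ± 0.07 (SE, adjusted p = 5.21e-19 by edgeR). mt-Co2 had 204, 298 and 313 counts against 501, 452 and 439, with a log2 fold change of 0.95 ± 0.10 (adjusted p = 6.71e-13 by edgeR). Neither gene overlapped between the groups. mt-Co3 had 34, 46 and 44 counts against 74, 45 and 49, with a log2 fold change of 0.60 ± 0.25, and did not pass the test (adjusted p = 0.062 by edgeR).

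For complex V, the ATP synthase, mt-Atp6 had 52, 112 and 49 counts in the libraries labelled WT and 72, 56 and 77 for those labelled Dab2-cKO. The groups overlapped, and the log2 fold change of 0.12 ± 0.23 (SE) did not pass the test (adjusted p = 0.78 by edgeR). Its sign changed with the scaling, to -0.02 by upper quartiles and to -0.30 by library size only. mt-Atp8 had 0 to 8 counts per library and was not tested.

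Within the mRNA pool, some shares shifted between the groups. mt-Co1 made up 28.7, 29.2 and 29.4% of the mRNA counts in the libraries labelled WT and 31.9, 32.4 and 32.2% for those labelled Dab2-cKO, without overlap. mt-Nd5 made up 19.1, 19.5 and 18.7% against 17.6, 17.2 and 17.1%, without overlap in the other direction. mt-Nd1 and mt-Cytb were also at lower shares in all libraries labelled Dab2-cKO, with means of 12.7 against 13.3% and of 19.3 against 20.8%. By complex, the shares were 49.6 ± 0.62% and 48.0 ± 0.42% for complex I, 20.8 ± 0.42% and 19.3 ± 0.29% for complex III, and 29.5 ± 0.39% and 32.6 ± 0.24% for complex IV, labelled WT first (SD, n = 3 each). None of these 3 shares overlapped between the groups, each with exact permutation p = 0.1, the smallest possible. The log2 ratio of the complex I shares turned from -0.05 to 0.016 when only mRNAs outside the copied stretch were used. This choice was made after seeing the data, and it leaves only mt-Cytb and complex I mRNAs. The share there is complex I against mt-Cytb alone, so its sign cannot show an effect of the copied stretch. Complex V made up 0.0970 ± 0.0415% and 0.0629 ± 0.0039% (exact permutation p = 0.1), and its 3 values labelled WT, between 0.0679 and 0.145%, came close to the highest value labelled Dab2-cKO of 0.0663%.

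Levels between genes were compared per kb of gene. Of the 13 mRNAs, 5 have no base in the stretch copied on chromosome 1, and these lay between 4188 normalized counts per kb (mt-Nd2) and 13283 (mt-Cytb) in the libraries labelled WT. The 6 mRNAs wholly inside that stretch, mt-Co2, mt-Atp8, mt-Atp6, mt-Co3, mt-Nd3 and mt-Nd4l, lay between 9.98 and 372. mt-Co1 and mt-Nd4, which are partly inside, lay at 13720 and 3379. The same split held in the libraries labelled Dab2-cKO, with 7234 to 20605 outside and 9.78 to 722 inside. Every mRNA wholly inside the copied stretch thus lay below every mRNA wholly outside it, the 2 partly inside did not lie with those inside, and what the counting did with such reads was not tested.

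**Figure D3:**
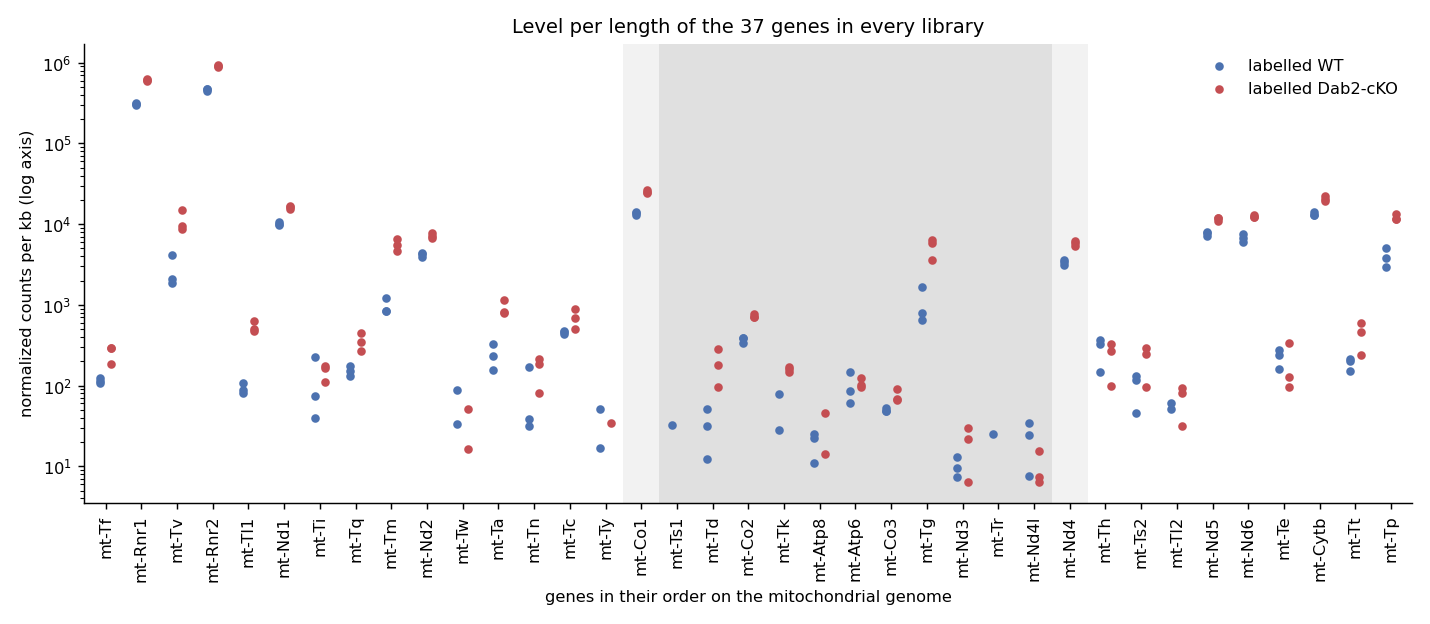
Normalized counts per kb (log axis) of the 37 genes in each of the 6 libraries, in the order of the genes along the mitochondrial genome. Dark shading marks the 11 genes that lie wholly in the stretch copied on chromosome 1 and light shading the genes partly in it; values of 0 are not drawn.

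When the counts of mt-Co1 and mt-Nd4 were set against only their bases outside the copied stretch, 7 mRNAs could be ordered by normalized counts per kb. The order in the libraries labelled WT was mt-Co1 (19960 ± 781), mt-Cytb (13283 ± 577), mt-Nd1 (10156 ± 441), mt-Nd4 (9277 ± 710), mt-Nd5 (7637 ± 476), mt-Nd6 (6760 ± 802) and mt-Nd2 (4188 ± 213; SD, n = 3 each). This scale is an upper bound for mt-Co1 and mt-Nd4, since it takes all of their counts to come from those bases. mt-Nd1 and mt-Nd4 overlapped in both groups, and mt-Nd1 was the higher in 5 of 6 libraries. mt-Nd5 and mt-Nd6 also overlapped in both groups, and mt-Nd5 was the higher in 3 of 6 libraries. The other neighbours in the order kept it in 6 of 6 libraries. On the whole length, the rRNAs stood at 63.5 ± 1.4 times the mRNAs per kb in libraries labelled WT and at 74.7 ± 1.9 times for those labelled Dab2-cKO. That length includes the mRNAs wholly inside the copied stretch, which held few counts, and the copied parts of mt-Co1 and mt-Nd4. For this reason alone, both ratios would be upper bounds. The kit's step against ribosomal cDNA can lower the rRNA counts, so neither value bounds the ratio in the cells.

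The annotation places 7 genes in the copy on chromosome 1, each named as a copy of part of a mitochondrial mRNA. Whether the reads counted for them came from chromosome 1 or from mitochondrial RNA was not tested. Gm28438, the copy of mt-Nd3, had 416, 389 and 395 counts in the libraries labelled WT and 682, 521 and 575 for those labelled Dab2-cKO. mt-Nd3 itself had 3, 5 and 3 counts against 8, 9 and 2. The nuclear entry thus stood far above the mitochondrial one in all 6 libraries, and it did not overlap between the groups (log2 fold change 0.72 ± 0.09, SE, adjusted p = 1.07e-09 by edgeR). The other 6 had 14 to 133 counts per library. Of the 7, all were tested and 4 were called higher (Gm28438, Gm10925, Gm28661 and Gm29216), beside 16.8% of all genes. The others lay at log2 fold changes of 0.03 ± 0.38 (Gm28439), 0.07 ± 0.33 (Gm10222) and 0.51 ± 0.33 (Gm28437; SE).

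The tRNAs differed far more among themselves than the mRNAs did. Of the 14 tested, 8 were higher in the libraries labelled Dab2-cKO, by 1.16 to 2.53 on the log2 scale. None was lower and 6 were not called, beside 16.8% of all genes higher and 11.5% lower. Counts in a tRNA gene can come from the mature tRNA of 59 to 75 bases, from longer precursors or from reads of a neighbour that reach into it, and the table does not separate these. mt-Tm had 52, 93 and 67 counts in the libraries labelled WT and 399, 281 and 410 for those labelled Dab2-cKO, with a log2 fold change of 2.53 ± 0.14 (SE, adjusted p = 2.27e-25 by edgeR). mt-Tp had 177, 375 and 299 counts against 813, 671 and 802, with a log2 fold change of 1.61 ± 0.12 (adjusted p = 3.94e-12 by edgeR). In both, every library labelled Dab2-cKO lay above every library labelled WT, and the call held with any 1 library left out.

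mt-Tv had 128, 313 and 151 counts in the libraries labelled WT and 693, 523 and 931 for those labelled Dab2-cKO, with a log2 fold change of 2.04 ± 0.42 (SE, adjusted p = 0.030 by edgeR). mt-Tg had 49, 126 and 52 counts against 419, 212 and 392, with a log2 fold change of 2.33 ± 0.45 (adjusted p = 0.024 by edgeR). The groups did not overlap in either gene, but the libraries varied more than for mt-Tm. In mt-Tv, mt-Tm, mt-Tg and mt-Tp alike, replicate 2 was the highest of the libraries labelled WT. The call of mt-Tv was lost without WT replicate 1 (adjusted p = 0.11 by edgeR), without WT replicate 3 or without any 1 library labelled Dab2-cKO, and that of mt-Tg without WT replicate 1 (adjusted p = 0.094 by edgeR), WT replicate 3 or Dab2-cKO replicates 1 or 3. mt-Tg, unlike the other 3, lies wholly in the stretch copied on chromosome 1, and at 1043 ± 551 normalized counts per kb in libraries labelled WT it stood above its neighbours mt-Co3 (49.7 ± 2.8) and mt-Nd3 (9.98 ± 2.8; SD, n = 3 each).

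**Figure D4:**
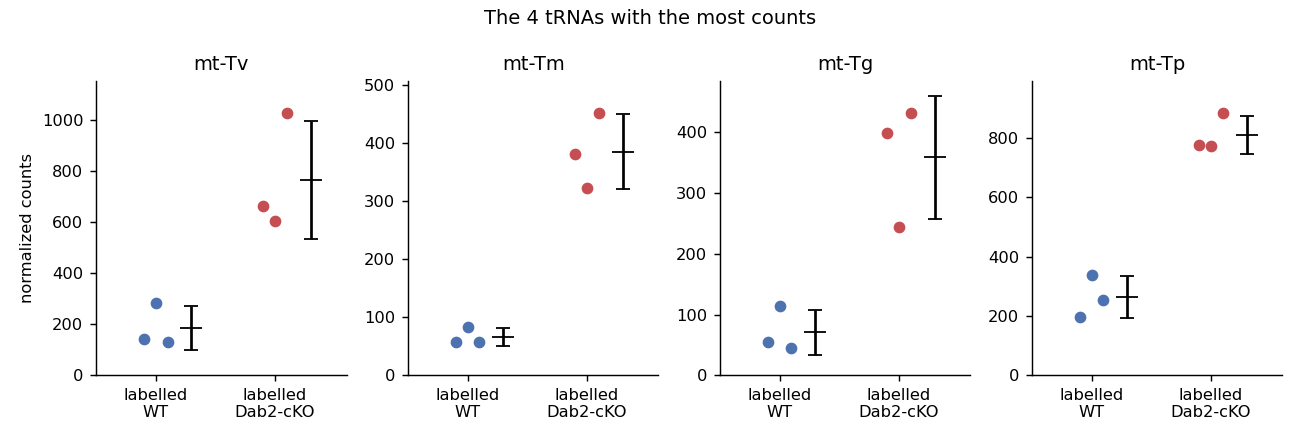
Normalized counts of mt-Tv, mt-Tm, mt-Tg and mt-Tp, with 1 point per library and the mean ± SD of 3 libraries beside them. In all 4 the lowest library labelled Dab2-cKO lies above the highest labelled WT, which is replicate 2 in each.

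The other 18 tRNAs together took 0.00150 to 0.00207% of all counts in libraries labelled WT and 0.00251 to 0.00317% for those labelled Dab2-cKO. Among them, mt-Tl1 (leucine), which lies between mt-Rnr2 and mt-Nd1, had 6 to 9 counts in libraries labelled WT and 32 to 50 for those labelled Dab2-cKO, and its log2 fold change of 2.52 ± 0.40 (SE, adjusted p = 2.51e-07 by edgeR) was close to that of mt-Tm. mt-Ta (alanine) had 12 to 20 counts against 48 to 72, with a log2 fold change of 1.97 ± 0.30 (adjusted p = 8.68e-08 by edgeR). mt-Tq (glutamine) and mt-Tt (threonine) were called at log2 fold changes of 1.21 ± 0.43 and 1.16 ± 0.40, with 9 to 16 counts in libraries labelled WT, and lost the call in several alternatives, DESeq2 among them. The 6 tRNAs not called were mt-Tf (1.15 ± 0.50), mt-Tn (0.97 ± 0.61), mt-Tc (0.58 ± 0.28), mt-Ti (0.46 ± 0.60), mt-Th (-0.27 ± 0.44) and mt-Te (-0.30 ± 0.48; log2 fold change ± SE). At 2 to 53 counts per library, these 6 could have hidden changes of the size seen in mt-Nd1. Of the 8 tRNAs not tested, mt-Ts1 and mt-Tr were at 0 in every library labelled Dab2-cKO, and the limit that a count of 0 allows is 3 counts per library, at most 3.20e-05% of all counts there.

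The called tRNAs came from both strands. mt-Tv, mt-Tl1, mt-Tm, mt-Tg and mt-Tt lie on the plus strand, and mt-Tq, mt-Ta and mt-Tp on the minus strand. tRNAs of the minus strand made up 43.6 to 52.2% of the tRNA counts in libraries labelled WT and 34.01 to 40.93% for those labelled Dab2-cKO. mt-Tm, mt-Tp and mt-Tl1 have a GC content of 44.9, 44.8 and 44%, the highest of the 22 tRNAs. The other called tRNAs lie between 30.9% (mt-Tg) and 39.1% (mt-Tv), and a link of GC content to the change was not tested.

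To describe the genes relative to the mRNAs, the fit was repeated with each library scaled to its summed mitochondrial mRNA counts. On this scale 5.00% of all genes were called higher and 58.5% lower, around a median of -0.76. Of the 14 tRNAs, 6 were called higher and 1 lower. The 6 were mt-Tl1 (1.79 ± 0.43), mt-Tm (1.78 ± 0.16), mt-Tg (1.58 ± 0.27), mt-Tv (1.29 ± 0.39), mt-Ta (1.22 ± 0.31) and mt-Tp (0.86 ± 0.12; log2 difference ± SE), and the 1 lower was mt-Th (-0.99 ± 0.43). The rRNAs stood at 0.24 ± 0.12 and 0.23 ± 0.12 and were not called (adjusted p = 0.072 and 0.090 by edgeR). Among the mRNAs only mt-Atp6 was called, at -0.63 ± 0.22 (adjusted p = 0.0094 by edgeR), and the other 9 lay between -0.15 and 0.21.

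The proteins that transcribe, cut and degrade mitochondrial RNA are encoded in the nucleus. A list of 27 genes of key machinery held such genes, genes that copy mitochondrial DNA and nuclear regulators of mitochondrial genes. Of the 27, 26 were tested, 3 were higher, 5 lower and 18 not called, with a median log2 fold change of -0.03. Over all genes, 16.8% were higher and 11.5% lower. Both enzymes that cut tRNAs out of the precursors were lower in the libraries labelled Dab2-cKO. Elac2, the 3′ endonuclease, had 312, 475 and 427 counts in the libraries labelled WT and 255, 189 and 193 for those labelled Dab2-cKO, with a log2 fold change of -0.76 ± 0.11 (SE, adjusted p = 1.77e-08 by edgeR). Prorp, the nuclease subunit of mitochondrial RNase P, had 112, 155 and 236 counts against 102, 86 and 88, with a log2 fold change of -0.68 ± 0.16 (adjusted p = 0.00047 by edgeR). Of the other subunits of RNase P, Hsd17b10 was higher at 0.46 ± 0.14 and Trmt10c was not called at -0.04 ± 0.14. Between the counts of each nuclease the groups did not overlap.

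Of the transcription machinery, the RNA polymerase Polrmt was lower at -0.36 ± 0.13 (log2 fold change ± SE, adjusted p = 0.030 by edgeR), and the factors Tfam (0.04 ± 0.11), Tfb2m (0.12 ± 0.14) and Tefm (-0.02 ± 0.24) were not called. Neither were the termination factor family members Mterf1a (0.07 ± 0.26), Mterf1b (0.20 ± 0.39), Mterf3 (-0.17 ± 0.16) and Mterf4 (-0.10 ± 0.15). Lrpprc, which stabilizes mitochondrial mRNAs, was lower at -0.42 ± 0.08, and its partner Slirp, at 0 to 13 counts, was not tested. Rexo2, which degrades short RNAs, was lower at -0.49 ± 0.10, and Pnpt1, which degrades longer ones, was higher at 0.38 ± 0.11. The helicase of that degradation complex, Supv3l1 (-0.02 ± 0.14), and the poly(A) polymerase Mtpap (-0.24 ± 0.14) were not called.

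The genes that copy mitochondrial DNA, Polg (-0.22 ± 0.09), Polg2 (0.23 ± 0.20), Twnk (-0.25 ± 0.13) and Ssbp1 (0.00 ± 0.12), were not called. Of the nuclear regulators of mitochondrial genes, Ppargc1a was higher at 0.46 ± 0.16 (log2 fold change ± SE, adjusted p = 0.021 by edgeR). Ppargc1b (0.08 ± 0.14), Nrf1 (-0.21 ± 0.10), Gabpa (-0.10 ± 0.09) and Esrra (0.25 ± 0.15) were not called. The higher calls in this list rest on the scaling: by library size only in edgeR, none of the 26 genes was higher, also at an unadjusted p under 0.05, and 17 were called lower, beside 8.35% higher and 34.7% lower over all genes on that scale.

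Among 44 genes for processing and modification of mitochondrial RNA, 3 were higher and 4 lower, beside 16.8% and 11.5% of all genes, with a median of -0.07. The largest falls among abundant ones were Nsun2, an RNA cytosine methyltransferase, at -0.76 ± 0.08, and Trit1, which modifies tRNA anticodon loops, at -0.48 ± 0.13. The largest rises were Fastk (0.50 ± 0.13) and Gtpbp3 (0.48 ± 0.15). A list of 22 genes for loading mitochondrial tRNAs held synthetases and the amidotransferase subunits Qrsl1, Gatb and Gatc. Of these 22, none was higher by edgeR, also at an unadjusted p under 0.05, and 5 were lower, with a median of -0.15. By DESeq2, 1 was higher and 3 lower. Gars1, the enzyme for glycine in cytosol and mitochondria, fell from 1264 ± 103 to 732 ± 31 normalized counts (SD, n = 3 each), and Rars2, for arginine, fell from 233 ± 22 to 170 ± 9. Of the 82 mitochondrial ribosomal proteins, 17 were higher and 4 lower, with a median of 0.14, beside the background of 16.8% and 11.5% over all genes. Mrpl42 (0.93 ± 0.10) and Mrps24 (0.85 ± 0.13) rose most among abundant ones, and Mrpl19 (-0.63 ± 0.16) and Mrps2 (-0.41 ± 0.15) fell most. By library size only in edgeR, 2 of the ribosomal proteins were called higher and 36 lower, and none of the 44 processing genes higher and 30 lower. Of the 22 loading genes, none was called higher and 19 lower. Over all genes on that scale, 8.35% were higher and 34.7% lower. Neither of the latter lists had a member higher at an unadjusted p under 0.05 on that scale.

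The nuclear genome supplies the remaining subunits of complexes I, III, IV and V, and most of those tested were higher. Of 73, 61 were higher by edgeR, none lower, also at an unadjusted p under 0.05, and 12 not called. Over all genes tested, 16.8% were higher and 11.5% lower. The median log2 fold change of the 73 was 0.57 beside -0.02 over all genes tested. By DESeq2, 59 were higher and none lower. By complex, 30 of 36 were higher for complex I (median 0.59), 7 of 9 for complex III (0.58), 8 of 10 for complex IV (0.56) and 16 of 18 for complex V (0.53). The largest rises among abundant ones were Ndufb9 of complex I, from 121 ± 14 to 269 ± 47 normalized counts (SD, n = 3 each), and Cox7b of complex IV, from 595 ± 34 to 1210 ± 38. The smallest called changes were those of Atp5f1b (0.18 ± 0.07) and Cox8a (0.27 ± 0.10; log2 fold change ± SE). With scaling by library size only, 26 of the 73 were higher and 8 lower, beside 8.35% and 34.7% of all genes, with a median of 0.15 against -0.45 over all genes. Relative to the mitochondrial mRNAs, 2 were higher and 24 lower, beside 5.00% and 58.5% of all genes. The median on that scale was -0.17 against -0.76 over all genes.

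**Figure D5:**
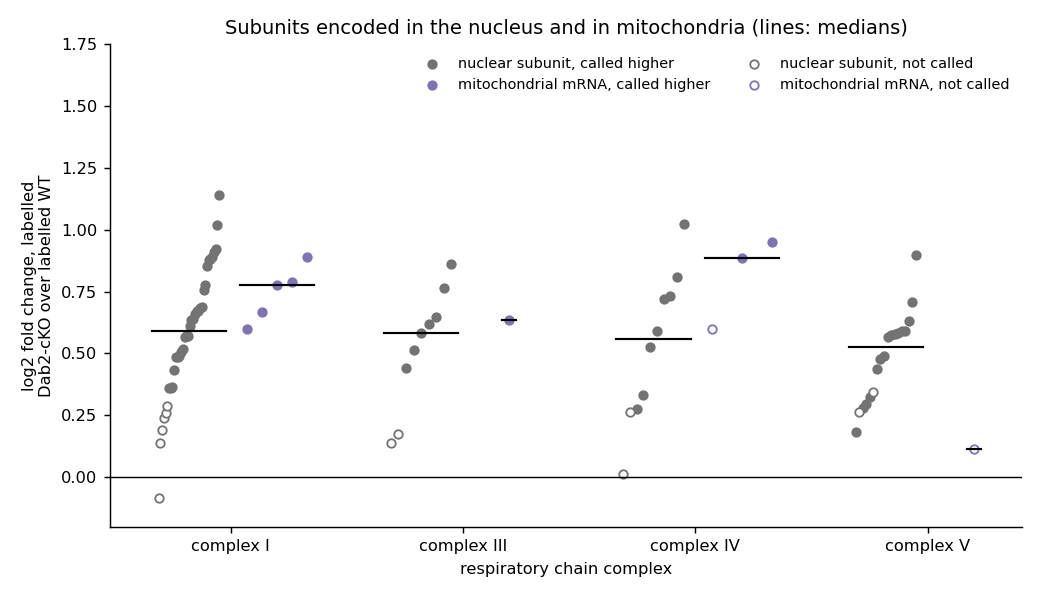
Log2 fold change of libraries labelled Dab2-cKO over libraries labelled WT for nuclear subunits (grey) and mitochondrial mRNAs (violet) of complexes I, III, IV and V after TMM scaling. Filled points were called higher, open points were not called, and lines mark medians, which for complex I are 0.59 for 36 nuclear and 0.78 for 5 mitochondrial genes.

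Among 26 genes that stand for mitochondrial mass and import, 7 were higher and 5 lower, beside 16.8% and 11.5% of all genes, with a median of 0.01. Slc25a4, the ADP/ATP carrier of muscle and heart, had 984, 1313 and 1312 counts in the libraries labelled WT and 3977, 3419 and 3458 for those labelled Dab2-cKO, with a log2 fold change of 1.76 ± 0.07 (SE, adjusted p = 4.72e-33 by edgeR). Slc25a5, the carrier of most other tissues, had 1335, 1896 and 1778 counts against 1094, 947 and 1035, with a log2 fold change of -0.53 ± 0.07 (adjusted p = 4.66e-09 by edgeR). The 2 carriers thus stood in opposite orders, with no overlap between the groups in normalized counts. Vdac1, the outer membrane channel, was higher at 0.75 ± 0.07, and the chaperonin Hspd1 was lower at -0.56 ± 0.08. With scaling by library size only, 3 of the 26 were higher and 18 lower, beside 8.35% and 34.7% of all genes.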

How the data were processed

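Total RNA from 3 libraries labelled WT and 3 labelled Dab2-cKO was analysed. The authors trimmed paired-end reads with fastp 0.23.4, aligned them to GRCm39 with HISAT2 2.2.1 and deposited counts per gene from featureCounts 2.0.6. Strand, multiple matches and molecular identifiers in the counting are not given in the sources used here, so limits from counts cover counting error only. A deposited table of the authors' own DESeq2 comparison (fold changes and p-values) was not used. The columns named FL-FL were taken as Dab2-cKO from the series title, and every direction depends on this.

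Counts were filtered with the expression filter of edgeR 4.0.16 (R 4.3.3), scaled by TMM and tested under its robust quasi-likelihood model, adjusted by Benjamini-Hochberg over 32149 genes. Genes were called at an adjusted p under 0.05. The procedure was tested on simulated data. Shares and ratios were compared by exact two-sided permutation. Coordinates, gene types and sequences came from GENCODE and the GRCm39 genome, in which 56323 of 56941 gene IDs were found. Nuclear copies were found by blastn at an identity of at least 90%.

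All 37 members are named, with counts per library for mRNAs, rRNAs and tRNAs of a mean count of at least 100. From nuclear lists, all key machinery is given, and from the others the 2 largest called rises and falls at that mean count. The members and lists were chosen with earlier results of these data known. Alternatives were DESeq2 1.42.0, other scalings, filters, denominators, a replicate block, adding nuclear copies, and each library left out.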

Additional observations from a re-analysis of the deposited data

How the results depend on the processing

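The difference of the shares, as log2 of the ratio of the group means, kept its sign under every denominator and with each library left out. It was 0.31 for mRNA, 0.55 for rRNA, 1.4203 for tRNA and 0.54 for all members. It grew to 0.45, 0.68 and 0.67 for mRNA, rRNA and all members relative to counts without nuclear rRNA genes and members, to 0.52, 0.75 and 0.74 relative to nuclear protein-coding counts, and to 0.74, 0.98 and 0.96 relative to the effective library size, where tRNA stood at 1.84. Without the 2 short loci annotated as miRNA, a choice made after seeing the data, no share moved beyond 1 SD. The share of complex I in the mRNA counts, -0.05 on this scale, turned to 0.016 when only mRNAs outside the near-identical copy were used. This was also chosen after seeing the data. It leaves complex I against mt-Cytb alone, so the turn cannot show an effect of the copy. Adding the counts of the nuclear copies moved no ratio beyond 1 SD. For the complex V share that SD was 0.41, and its value went from -0.63 to -0.31. Gm10925, the copy of mt-Atp6, had 68 to 133 counts per library beside 49 to 112 for mt-Atp6.

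Scaled to the mitochondrial mRNAs, 1 mRNA and 0 rRNAs were called by edgeR (1 and 1 at an unadjusted p under 0.05). Of the nuclear lists, 195 genes were called on that scale, 3 higher and 192 lower, beside 5.00% and 58.5% of all genes. With TMM scaling these were 114 genes, 91 higher and 23 lower, beside 16.8% and 11.5% of all genes. On that scale the signs turned for mt-Nd1 (-0.073), mt-Nd5 (-0.14), mt-Cytb (-0.11), mt-Co3 (-0.15), mt-Ti (-0.26), mt-Tc (-0.17) and mt-Atp6 (-0.63), by the construction of the scale. mt-Atp6 was also at -0.021 with upper-quartile scaling and at -0.30 by library size only, and the cause was not tested. With a mean count of at least 50, only 4 tRNAs were tested and all 4 were called, beside 8523 of 14801 genes. With 1 library left out, 4 to 8 tRNAs were called, with 5 without WT replicate 3, 5 without Dab2-cKO replicate 2 and 4 without Dab2-cKO replicate 3. These fits tested 33714 to 34834 genes and called 7996 to 8546 of them. The log2 fold change of mt-Atp6 then lay between -0.14 and 0.57, that of mt-Th between -0.60 and 0.065 and that of mt-Te between -1.02 and 0.016, none of them called. The mRNAs and rRNAs called numbered 8 and 2 in each of these fits.

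Deviations of same-numbered libraries from their group means correlated at 0.008 to 0.023, beside -0.018 to 0.0055 for libraries of different numbers. Correlations this small cannot show whether same-numbered libraries shared a batch. With a replicate block, 8 mRNAs, 2 rRNAs and 6 tRNAs were called, beside 8967 of 32149 genes. Of the tRNAs, mt-Tv (adjusted p = 0.16 by edgeR) and mt-Tg (0.16) were the 2 lost. Of 351 values of single members under alternatives, 304 kept direction and call and 33 kept only the direction. With its direction kept, 1 was newly called (mt-Th, -0.99, scaled to the mRNAs), and 13 changed sign. Among those 13, mt-Atp6 scaled to the mRNAs was also newly called, at -0.63. At 9 to 16 counts, as for mt-Tq and mt-Tt, calls depended on the setting.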

Other observations

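Cytochrome c oxidase has subunits that exist in a form of muscle and heart and in a form of other tissues. This set was chosen after the values of the other lists were seen. The muscle forms Cox6a2, Cox7a1 and Cox8b had 54, 66 and 66, 34, 38 and 50, and 42, 53 and 64 counts in the libraries labelled WT. In the libraries labelled Dab2-cKO they had 248, 246 and 232, 99, 112 and 81, and 195, 236 and 211 counts. All 3 were higher without overlap, at log2 fold changes of 2.136 ± 0.15, 1.435 ± 0.216 and 2.195 ± 0.165 (SE, edgeR). Their counterparts Cox6a1 (0.01 ± 0.11) and Cox7a2 (0.27 ± 0.12) were not called, and Cox8a was called at 0.27 ± 0.10. The 5 skeletal muscle markers had a median log2 fold change of 2.42. Medians were also positive for markers of erythrocytes (2.73), endothelial cells (1.84), immune cells (1.72) and differentiated epidermis (1.65). So were those of fibroblasts (1.59) and sebaceous gland (1.29), and 4 of 5 adipocyte markers were called higher. Hair shaft and inner root sheath (-6.58), melanocyte (-1.99) and proliferation markers (-1.32) had negative medians. The part of RNA from muscle or from these other cells in the levels of the mitochondrial genes was not tested.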
